A study of Mus musculus with 6 samples.

Results

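The CCN family and the YAP pathway were followed in mouse liver cells of the type that lines bile ducts (biliary epithelial cells). The genes described are 10 of the 25302 rows of the expression table, taken by symbol: the matricellular genes Ccn1, Ccn2, Ccn3, Ccn4 and Ccn5, the YAP target genes Ankrd1 and Amotl2, the co-activator genes Yap1 and Wwtr1 (which encodes TAZ), and Tead1, a DNA-binding partner of both. The study compared 3 Control samples with 3 Sox9cKO samples by RNA sequencing of total RNA. Control samples had the genotype Sox9fl/fl, in which loxP sites flank a part of Sox9, a gene of a transcription factor,, and Sox9cKO samples had the genotype Sox9fl/fl:AlbCre+/-, so the floxed alleles were common to both groups. AlbCre is a Cre recombinase driven by the albumin promoter, which is active in the liver epithelial lineage, and any loss of Sox9 therefore depends on where and when that promoter was active. Age, sex, treatment and any pooling of animals are not given in the sources used here, and nothing says that the samples of a group came from separate animals, so the p-values measure the spread between these samples.

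CCN proteins are secreted, cysteine-rich proteins of the extracellular matrix that bind integrins and other receptors and modulate growth factor signalling. YAP and TAZ are held in the cytoplasm when the Hippo kinases phosphorylate them. When they are not, they enter the nucleus, bind TEAD factors and switch on genes such as Ccn1, Ccn2, Ankrd1 and Amotl2. In liver, YAP is known for its role in bile duct development and in the biliary response to injury, and Ccn1 and Ankrd1 are commonly used readouts of its activity.

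The libraries held between 11883496 and 16191990 reads assigned to genes. Sox9, the targeted gene, had 6211, 6043 and 6293 normalized reads in the Control samples and 3363, 3165 and 3340 in the Sox9cKO samples, so each library followed its label, and the transcript fell but was still present (limma, adjusted p 0.00501). All 10 listed biliary markers had reads in every sample, with summed levels of 73166 to 110996 normalized reads in Control and 69209 to 97997 in Sox9cKO. All 10 endothelial markers also had reads in every sample, and their sum ranged from 2124 (replicate 3) to 48310 (replicate 2) in Control and from 8140 (replicate 3) to 49689 (replicate 2) in Sox9cKO. In these bulk samples, fewer cells of a type and less RNA per cell cannot be told apart.

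Ccn5 rose in Sox9cKO from a level at which almost no reads were seen, while Ccn1, Ccn2, Ccn4, Ankrd1, Amotl2, Yap1, Wwtr1 and Tead1 did not pass the test and Ccn3 was too low to be tested. Of the 10 members, 9 had a mean of at least 10 normalized reads and were tested, and 1 of these 9 was called (limma, Benjamini-Hochberg adjusted p under 0.05), against 2.97% of the 17153 genes tested. That 1 was Ccn5, which met the minimum mean only through its Sox9cKO values (mean 69.3, against 1.15 in Control). By direction, 1 member was called higher in Sox9cKO, against 2.03% of all tested genes, and 0 lower, against 0.939%. The 3 values of one group lay wholly above or below those of the other for 3 of the 9 members (Ccn5, Tead1 and Wwtr1), against 24.2% of all tested genes. The median log2 fold change of the 9 members was 0.11, against 0.036 over all tested genes, and it depended on single libraries (-0.00049 without Control replicate 3, 0.0021 without Sox9cKO replicate 2 and 0.25 without Sox9cKO replicate 3). An unadjusted p under 0.05 was found for 4 of the 9 (Ccn5, Ccn2, Tead1 and Ccn4), against 17.8% of all tested genes.

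**Figure D1:**
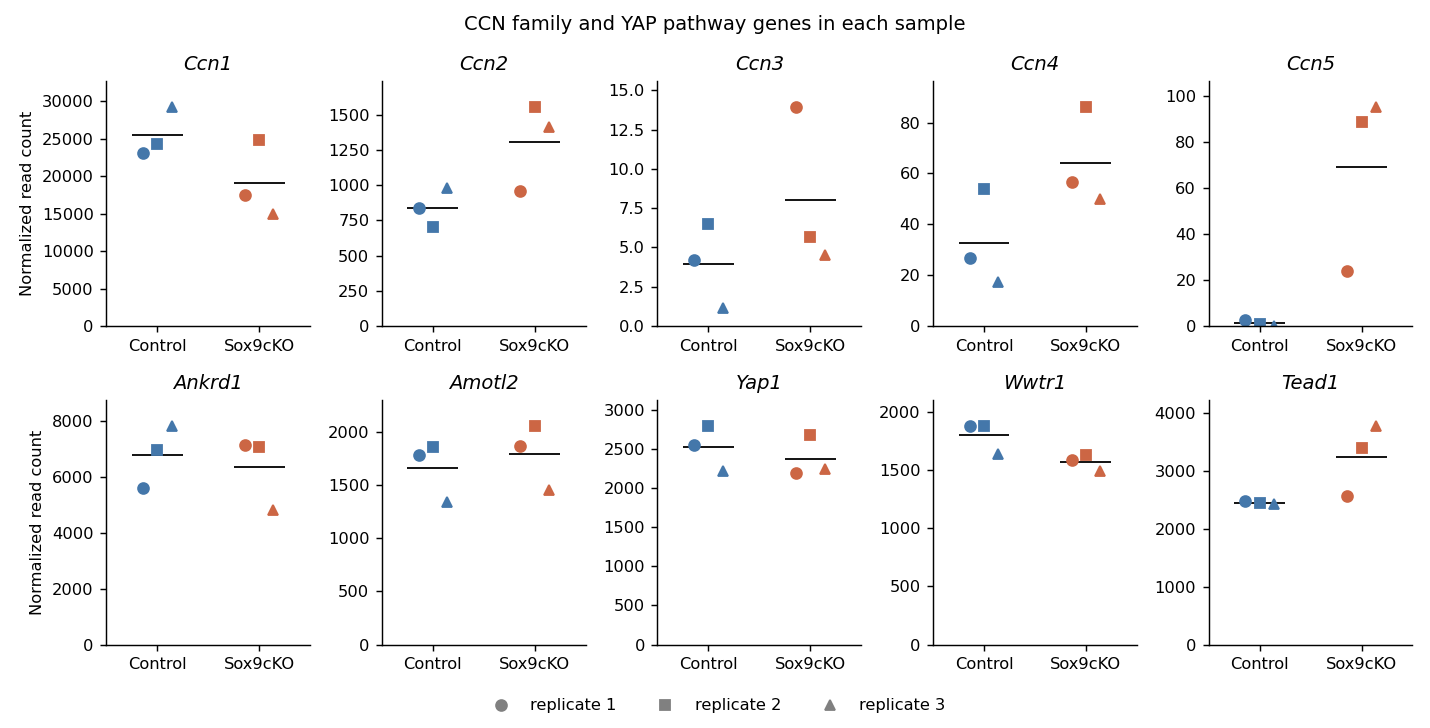
Normalized read count (vertical axis, starting at 0) of each of the 10 genes in the 3 Control and 3 Sox9cKO samples, with marker shape for the replicate number and a line at each group mean. Ccn5 lies between 23.9 and 95.1 in the Sox9cKO samples and at 2.52 or less in the Control samples, and the groups also do not overlap for Tead1 and Wwtr1.

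Among the CCN genes, which encode the secreted ligands, Ccn5 (ENSMUSG00000027656) had 2.52, 0.928 and 0 normalized reads in the Control samples and 23.9, 88.8 and 95.1 in the Sox9cKO samples. The Sox9cKO samples were all higher, and replicate 1 was the lowest of them. CCN5 lacks the C-terminal cystine-knot domain that the other family members carry, and it is known as a growth-restraining protein of smooth muscle. Its mean was 1.15 ± 1.28 in Control and 69.3 ± 39.4 in Sox9cKO (SD, n = 3). On the log2(value + 1) scale the difference between the groups was 4.98 ± 0.70 (standard error; limma, adjusted p 0.0134). These values stand for 4 reads in all Control samples together and 202 in all Sox9cKO samples. Scaled by the size factors, that is a ratio of 53.7, with a 95% exact binomial interval of 20.7 to 199 that covers counting error only. The call was lost without Sox9cKO replicate 2 (log2 fold change 4.69, adjusted p 0.0550), without Sox9cKO replicate 3 (4.64, adjusted p 0.0589) and with limma's voom weights (adjusted p 0.0642).

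Ccn5 is also expressed by fibroblasts and smooth muscle, so marker lists of other cell types were read beside it. The 12 mesenchymal markers all had reads in every sample, and their sum was 4245, 4171 and 3484 normalized reads in Control and 5949, 4223 and 4806 in Sox9cKO, higher in Sox9cKO at each replicate number. Sox9cKO replicate 1 had the highest mesenchymal sum and the lowest Ccn5 of its group. None of these 12 genes passed the test (limma), and the number with an unadjusted p under 0.05 was 0, or 3 with the replicate block. Over all 17153 tested genes that number was 3047 with limma and 4510 with the replicate block. All 7 mesothelial markers had reads in every sample, with sums of 966, 1040 and 992 in Control and 2223, 1207 and 2244 in Sox9cKO. Of them, Msln rose (log2 fold change 2.01, limma adjusted p 0.0159), a call lost in 4 of the 6 fits that left out 1 sample (without Control replicate 1 or 3 or Sox9cKO replicate 1 or 3; adjusted p up to 0.0719). The others had fold changes in both directions. At a minimum mean of 50, 3 of the 7 were tested, and all 3 had an unadjusted p under 0.05 (limma). Msln was the only 1 of these 3 with a positive fold change, and their median was -0.71. DESeq2 called 1 of the 7 higher and 1 lower, against 721 and 493 of all 17153 tested genes. The part of these cells in the Ccn5 result was not tested. The endothelial sum was 14977, 48310 and 2124 in Control and 37393, 49689 and 8140 in Sox9cKO, higher in Sox9cKO at each replicate number. Sox9cKO replicate 3 had the highest Ccn5 and the lowest endothelial sum of its group. None of the 10 endothelial markers passed with limma, edgeR or DESeq2, and the number at an unadjusted p under 0.05 was 0 with limma, but 9 with the replicate block (7 with edgeR and the block). Their median log2 fold change was 1.07, and it was -0.17 without Control replicate 3, 2.14 without Control replicate 2 and 0.49 with edgeR or DESeq2. The part of endothelial cells in the Ccn5 result was not tested. Of 8 leukocyte markers, 7 were in the table, all with reads in every sample. They summed to 1136, 1092 and 1058 in Control and 1512, 1647 and 1831 in Sox9cKO. Within Sox9cKO, this sum and Ccn5 were both lowest in replicate 1 and highest in replicate 3. Csf1r was the marker that rose (log2 fold change 0.92, limma adjusted p 0.0142; lost without Control replicate 1 or 3 or Sox9cKO replicate 2, adjusted p up to 0.0728), and the 5 other tested ones had negative fold changes. The part of leukocytes was likewise not tested. All 9 hepatocyte markers had reads in every sample, with sums of 29921, 18832 and 20450 in Control and 34507, 22448.5 and 36583 in Sox9cKO. This sum was also higher in Sox9cKO at each replicate number, and most of it came from Alb. None of the 9 passed the test (limma), and 7 had positive and 2 negative fold changes. The part of hepatocytes was not tested.

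**Figure D2:**
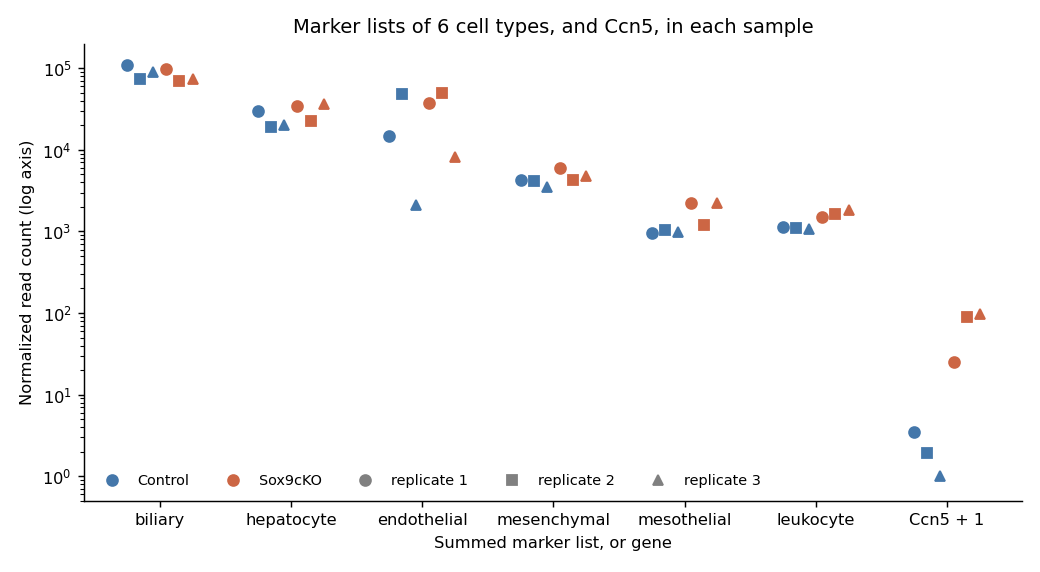
Summed normalized read counts of the marker lists of 6 cell types and the level of Ccn5 plus 1 (vertical log axis) in each sample, by group (colour) and replicate number (shape). The groups do not overlap for Ccn5 or for the mesothelial and leukocyte sums, and they overlap for the biliary, hepatocyte, endothelial and mesenchymal sums, of which the endothelial one spans 2124 to 49689.

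Ccn1 (ENSMUSG00000028195), also known as Cyr61, was by far the most abundant CCN transcript. It had 23074, 24254 and 29206 normalized reads in Control and 17461, 24848 and 14946 in Sox9cKO. Sox9cKO replicates 1 and 3 lay below every Control sample, but replicate 2 lay within the Control range. This gave a log2 fold change of -0.44 (95% interval -0.93 to 0.04; limma, adjusted p 0.320). Ccn1 is an immediate early gene, so a list of 12 immediate early and stress genes was read beside it. Of those 12, 11 had negative fold changes, 1 fell (Atf3, log2 fold change -1.005, limma adjusted p 0.0263) and 1 rose (Dusp1, 0.87, adjusted p 0.0151). Of all tested genes, limma called 0.939% lower and 2.03% higher. The 12 genes had an unadjusted p under 0.05 in 9 cases, against 17.8% of all tested genes. With DESeq2, and with the replicate block in limma or edgeR, 5 fell and 1 rose, and with quantile normalization 3 fell. Of all 17153 tested genes, DESeq2 called 493 lower and 721 higher. With the block, limma called 513 lower and 868 higher, and edgeR 496 and 664. Quantile normalization gave 203 lower. Atf3 lost its call in 6 of 18 alternatives, 5 of them fits without 1 sample (all but Control replicate 2; adjusted p up to 0.0968). Dusp1 lost its call in 3, which were those without Control replicate 1 or 3 and without the intensity trend (adjusted p up to 0.0876). The median of the list was -0.56. The part of that difference in the Ccn1 values was not tested.

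Ccn2 (ENSMUSG00000019997), also known as connective tissue growth factor, had 841, 704 and 978 normalized reads in Control and 957, 1554 and 1416 in Sox9cKO. Sox9cKO replicates 2 and 3 were above all Control samples, and replicate 1 was just below Control replicate 3. On the log2 scale Ccn2 differed by 0.62 ± 0.21 (standard error; limma, unadjusted p 0.0215), and it did not pass after adjustment (adjusted p 0.190; the block on replicate number gave 0.0875). Ccn2 and Ccn1 thus had fold changes of opposite sign. Their ratio within a sample, which does not depend on the size factors, was examined after these values were seen. The log2 of Ccn2 over Ccn1 was -4.78, -5.11 and -4.90 in Control and -4.19, -4.00 and -3.40 in Sox9cKO, so the groups did not overlap. The difference was 1.07, and the exact two-sided permutation p was 0.1, the smallest value that 3 samples against 3 allow. Within the 3 pairs of replicate numbers, the exact two-sided p was 0.25, again the smallest possible.

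Ccn4 (ENSMUSG00000005124), also known as Wisp1, a target of Wnt signalling, was low. It had 26.9, 53.8 and 17.3 normalized reads in Control and 56.7, 86.0 and 49.8 in Sox9cKO. Control replicate 2 overlapped the Sox9cKO samples. Its log2 fold change of 1.06 had a 95% interval of 0.03 to 2.10 (limma, adjusted p 0.267; blocked by replicate, 0.0600). Ccn3 (ENSMUSG00000037362), also known as Nov, was too low to be tested, with 5, 7 and 1 reads in Control and 14, 6 and 4 in Sox9cKO. The ratio of its scaled reads was 1.96, with a 95% exact binomial interval for counting error of 0.961 to 4.201, so no difference was detectable at this depth. Ccn6, the remaining family member, was not in the set and had at most 18.6 normalized reads in any sample.

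Levels of different genes were compared per kilobase of exon, counting every annotated exon of a gene once, so a gene with many annotated exons can come out lower. In Control, Ccn1 had 12636 normalized reads per kb, Ankrd1 2359, Wwtr1 377, Ccn2 294, Yap1 273, Amotl2 264, Tead1 181, Ccn4 5.87, Ccn3 1.38 and Ccn5 0.598. The Control ranges of Ccn2, Yap1 and Amotl2 overlapped (245.9 to 342, 240.3 to 302 and 214 to 296 per kb), as did those of Ccn3 and Ccn5, so these neighbours did not differ beyond their spread. In Sox9cKO, Ccn5 reached 36.0 per kb and stood above Ccn4 at 11.5 in every sample. Ccn1 made up 97.7% ± 0.232 of the per-kb sum of the 5 CCN genes in Control and 94.8% ± 1.55 in Sox9cKO, and Ccn2 made up 2.27% ± 0.252 and 4.71% ± 1.33 (SD, n = 3). Ccn5 remained a small part of that sum, at 0.372% ± 0.242 in Sox9cKO.

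The 5 tested genes with a proper symbol whose profile over the 6 samples came closest to that of Ccn5 were Scn7a, Ltbp2, Gc, Kng2 and Ncam1. Likeness was the root mean square difference of log2(value + 1) after centring each gene on its mean, and it was 0.29 for Scn7a, a sodium channel gene, and 0.64 for Ltbp2, which encodes a latent TGF-beta binding protein. It was 0.68 for Gc (vitamin D binding protein), 0.74 for Kng2 (kininogen) and 0.84 for Ncam1 (a neural cell adhesion molecule). Scn7a had 16.8, 14.8 and 5.76 normalized reads in Control and 199, 594 and 473 in Sox9cKO. As for Ccn5, the lowest Sox9cKO value was in replicate 1. A gene found in this way has to differ between the groups as Ccn5 does.

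The YAP target genes Ankrd1 and Amotl2 did not pass the test. Ankrd1 (ENSMUSG00000024803), which encodes an ankyrin repeat protein, had 5607, 6973 and 7846 normalized reads in Control and 7167, 7068 and 4822 in Sox9cKO. Sox9cKO replicate 3 was the lowest of all 6 samples, and the others overlapped. Its log2 fold change was -0.11 (95% interval -0.57 to 0.35; limma, adjusted p 0.826), and the sign turned without Sox9cKO replicate 3 (0.078). Amotl2 (ENSMUSG00000032531), which encodes a junction protein that binds YAP and restrains it, had 1782, 1860 and 1343 in Control and 1867, 2058 and 1454 in Sox9cKO. In both groups replicate 3 was the lowest and replicate 2 the highest. Its log2 fold change was 0.11 (95% interval -0.32 to 0.54; limma, adjusted p 0.811), and the sign turned without Control replicate 3 (-0.037). Both intervals span 0, and they do not show that the levels were equal.

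TEAD factors bind a core motif that reads GGAATG, or CATTCC on the other strand. The 250 bases before the RefSeq start site were searched for it on both strands in the 5 members with an entry, which were Ccn1, Ankrd1, Amotl2, Yap1 and Wwtr1. All 5 held it, against 14.4% of the 27025 genes with an entry (12.6% of 32851 promoters). Among tested genes with an entry, 13.1% of 11338 held it. Of the 5, Ccn1, Ankrd1 and Amotl2 were known as TEAD target genes before the search, so the count was partly set by the choice of genes. The upstream sequences of these 3 TEAD target genes are shown, 5′ to 3′ on the strand of the gene, because they are the readout genes of TEAD activity described here. Capitals mark the core. It starts 103 bases before the start site in Ccn1 (GRCm38.p6, chr3:145649986-145650235, minus strand), 210 and 123 bases before it in Ankrd1 (chr19:36119845-36120094, minus strand), and 65 bases before it in Amotl2 (chr9:102717554-102717803, plus strand).
Ccn1: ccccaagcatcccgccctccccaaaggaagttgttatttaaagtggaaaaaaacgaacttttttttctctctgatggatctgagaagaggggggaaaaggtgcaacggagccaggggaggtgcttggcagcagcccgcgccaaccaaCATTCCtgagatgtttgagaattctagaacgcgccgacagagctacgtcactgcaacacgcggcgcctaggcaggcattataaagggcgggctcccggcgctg
Ankrd1: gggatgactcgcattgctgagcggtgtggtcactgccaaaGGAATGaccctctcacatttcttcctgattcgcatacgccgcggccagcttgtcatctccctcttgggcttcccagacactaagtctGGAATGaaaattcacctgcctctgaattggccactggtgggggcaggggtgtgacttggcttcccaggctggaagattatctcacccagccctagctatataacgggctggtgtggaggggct
Amotl2: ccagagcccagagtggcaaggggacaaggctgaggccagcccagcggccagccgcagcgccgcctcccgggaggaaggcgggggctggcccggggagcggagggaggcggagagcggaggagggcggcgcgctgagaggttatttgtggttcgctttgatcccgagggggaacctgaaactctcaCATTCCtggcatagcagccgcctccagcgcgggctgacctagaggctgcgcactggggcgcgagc
The corresponding window of Igfbp3, the target gene that rose, held no core. A match of these letters is a description of the sequence and does not show binding in these cells.

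The co-activator genes did not pass the test. Yap1 (ENSMUSG00000053110) had 2556, 2800 and 2225 normalized reads in Control and 2194, 2684 and 2247 in Sox9cKO. The groups overlapped throughout, and replicate 2 was the highest in each. This is a log2 fold change of -0.089 (95% interval -0.41 to 0.23; limma, adjusted p 0.787). Wwtr1 (ENSMUSG00000027803), the TAZ gene, had 1877, 1882 and 1639 in Control and 1588, 1629 and 1490 in Sox9cKO. All Sox9cKO samples were below all Control samples, with Control replicate 3 and Sox9cKO replicate 2 nearly level. In log2 terms the difference was -0.20 (95% interval -0.45 to 0.06; limma, adjusted p 0.413). The ratio of Wwtr1 to Yap1 per kb was 1.38 ± 0.071 in Control and 1.29 ± 0.113 in Sox9cKO (SD, n = 3; exact two-sided permutation p 0.2).

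Among the TEAD genes, which encode the DNA-binding partners of YAP and TAZ, Tead4 rose and Tead1 did not pass the test. Tead1 (ENSMUSG00000055320) had 2489, 2455 and 2427 normalized reads in Control and 2570, 3404 and 3785 in Sox9cKO. The Control samples lay close together, and all Sox9cKO samples were above them, replicate 1 least so. Its log2 fold change was 0.39 (95% interval 0.02 to 0.75; limma, unadjusted p 0.0398, adjusted p 0.251). Tead4 (ENSMUSG00000030353), from the list of co-activators and cofactors, had 218, 261 and 287 in Control and 699, 683 and 830 in Sox9cKO. Every Sox9cKO sample was well above every Control sample. Tead4 rose by 1.53 ± 0.16 on the log2 scale (standard error; limma, adjusted p 0.00475), and it stayed called in each of the 18 alternatives tried, with log2 fold changes of 1.41 to 1.62.

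**Figure D3:**
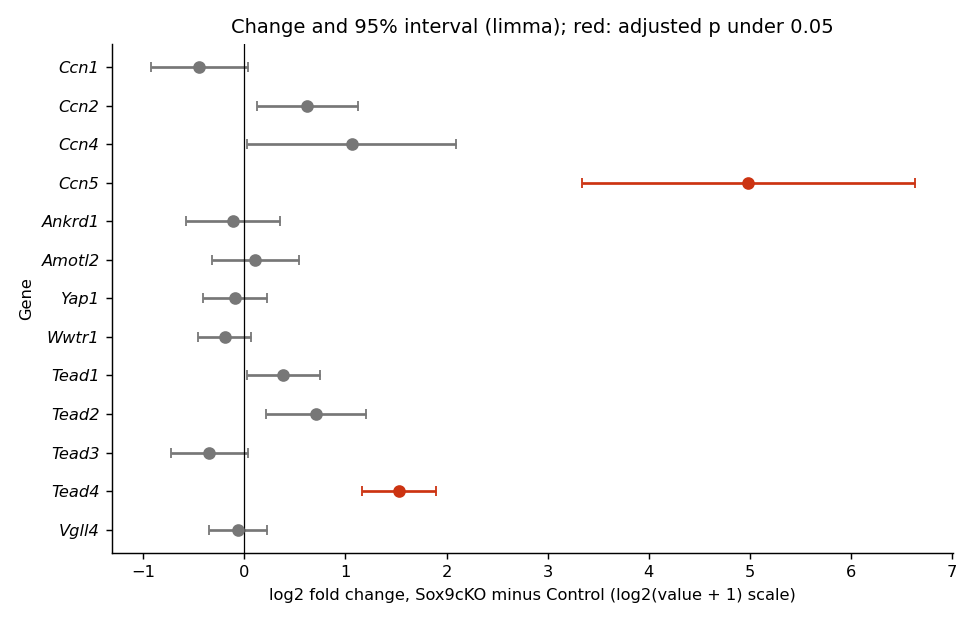
log2 fold change, Sox9cKO minus Control, with 95% intervals from limma (horizontal axis) for the 9 tested members and for Tead2, Tead3, Tead4 and Vgll4 (vertical axis). Ccn5 (4.98) and Tead4 (1.53) passed the adjusted threshold and are drawn in red, and the intervals of Ccn1, Ankrd1, Amotl2, Yap1 and Wwtr1 include 0.

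Of the other TEAD genes, Tead2 did not pass at 0.71 on the log2 scale (limma, adjusted p 0.140; the groups did not overlap), nor did Tead3 at -0.35 (adjusted p 0.332). Per kb, Tead1 made up 52.2% ± 0.981 of the TEAD sum in Control and 44.2% ± 3.40 in Sox9cKO, and Tead4 made up 20.5% ± 3.08 and 38.1% ± 3.18 (SD, n = 3). The Tead3 share was 20.4% ± 2.72 and 10.4% ± 1.35. The summed TEAD level was 355, 339 and 347 normalized reads per kb in Control and 470, 543 and 605 in Sox9cKO. None of these 4 quantities overlapped between the groups, and each had an exact two-sided permutation p of 0.1, or 0.25 within the pairs, the smallest possible in each case. They were examined after the Tead4 values were seen. Vgll4, which encodes a competitor of YAP for TEAD, differed by -0.065 on the log2 scale (limma, adjusted p 0.836). Vgll3 was below the minimum for testing. Of the 7 tested genes of this list, 1 rose and none fell, against 2.03% and 0.939% of all tested genes. The median log2 fold change of the 7 was -0.065.

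**Figure D4:**
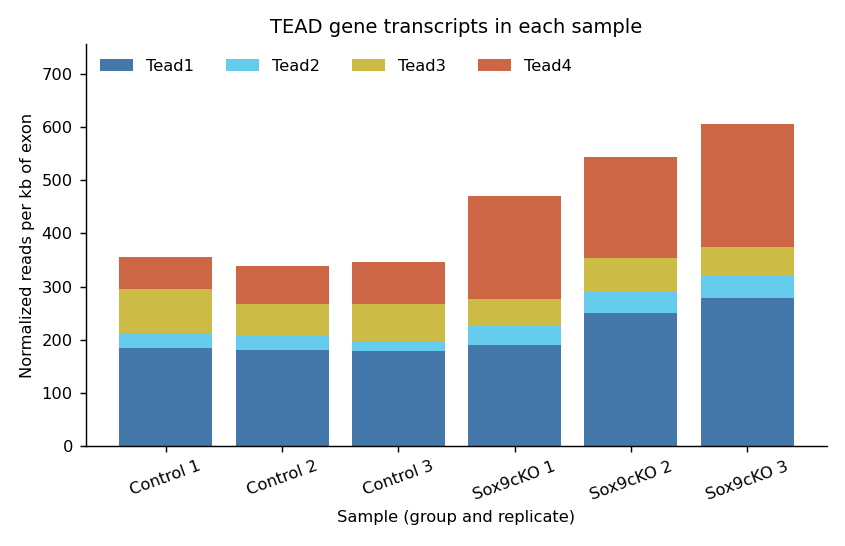
Normalized reads per kb of exon (vertical axis, stacked and starting at 0) of Tead1, Tead2, Tead3 and Tead4 in each of the 6 samples. The Tead4 segment makes up between 17.0% and 23.0% of the bar in the Control samples and between 34.97% and 41.3% in the Sox9cKO samples.

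The Hippo pathway list held 24 genes that encode the kinases, scaffolds, junction proteins and upstream regulators which control YAP and TAZ, among them Amotl2. None of the 24 passed the test with limma, edgeR or DESeq2, where limma called 2.97% of all tested genes. With limma, 2 had an unadjusted p under 0.05, against 17.8% of all tested genes. The median log2 fold change of the 24 was 0.065, and they ranged from -0.35 (Frmd6) to 0.68 (Map4k4). The core kinase genes had log2 fold changes of 0.16 for Stk3, 0.34 for Stk4, 0.033 for Lats1 and -0.096 for Lats2. Map4k4, a kinase that acts upstream of Lats kinases, had 4498, 6086 and 5097 normalized reads in Control and 6536, 11653 and 7528 in Sox9cKO, so the groups did not overlap. It passed only where the replicate number was a block (limma, adjusted p 0.0190, against 0.183 without the block), a fit that called 8.05% of all tested genes. Dchs1, an atypical cadherin gene, had 252, 671 and 76.0 in Control and 569, 677 and 115 in Sox9cKO. It was lowest in replicate 3 of each group, as the endothelial markers were, and the part of endothelial cells in it was not tested.

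The target list held 22 genes commonly listed as YAP and TAZ targets, Ccn1, Ccn2, Ankrd1, Amotl2, Lats2 and Ptpn14 among them, of which 21 were tested. Igfbp3 rose and none fell, against 2.03% and 0.939% of all tested genes called higher and lower. Of the 21, 15 had positive fold changes. An unadjusted p under 0.05 was found for 8 of the 21 (limma), against 17.8% of all tested genes. The median of the list was 0.39, against 0.036 over all tested genes. It was 0.22 without Control replicate 3, 0.24 without Sox9cKO replicate 1 and 0.25 without Sox9cKO replicate 2. Igfbp3, which encodes a binding protein of insulin-like growth factors, had 42.0, 45.5 and 38.0 normalized reads in Control and 197, 137 and 166 in Sox9cKO. All Sox9cKO values were well above the highest Control value. Igfbp3 rose by 1.96 ± 0.21 on the log2 scale (standard error; limma, adjusted p 0.00553), and it stayed called in all 18 alternatives. Against 8.05% of all tested genes, limma with the replicate block called 4 of the 21. These were Igfbp3, Tgfb2 (log2 fold change 0.55, adjusted p 0.0424, against 0.174 without the block), Myof (0.44, adjusted p 0.0402, against 0.318) and Rbms3, which was lower (-0.71, adjusted p 0.0136, against 0.0848). Among 15 of these target genes with a RefSeq promoter, 6 held the TEAD core in the 250 bases searched, against 14.4% of the 27025 genes with an entry. Ccn1, Ankrd1 and Amotl2, counted among the members above, are among these 6.

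**Figure D5:**
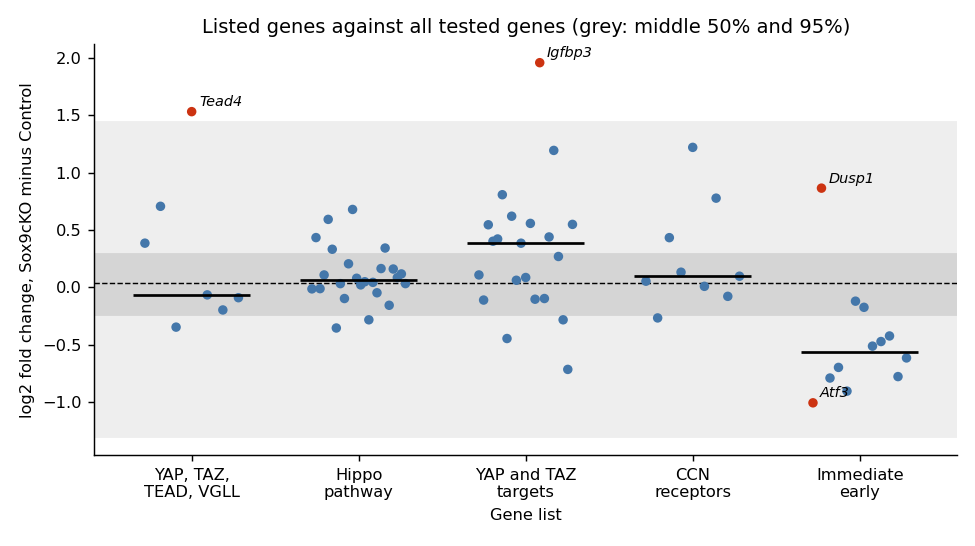
log2 fold change, Sox9cKO minus Control (vertical axis), of each tested gene in 5 lists (horizontal axis), with a line at the list median. The grey bands hold the middle 50% and 95% of all tested genes and the dashed line is their median of 0.036. The target list has a median of 0.39, and Tead4, Igfbp3, Dusp1 and Atf3 are the genes drawn in red that passed the adjusted threshold.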

How the data were processed

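Per the labels, total RNA of biliary epithelial cells went into stranded libraries with ribosomal RNA depletion and unique molecular identifiers. The authors deposited 1 table of normalized gene counts (a signal per gene and sample), and the submitters' processing notes name DESeq2 1.36.0 and the build GRCm39. The aligner, the counting, the annotation and the use of the identifiers are not given in the sources used here, so whether duplicates were removed and whether strand was used is unknown. Dividing each sample's values by its smallest value above 0 gave whole reads (100% of values, tolerance 0.001 reads). The resulting factors (0.868 to 1.19) equalled DESeq2's size factors on those reads. No gene had fewer than 10 reads over the 6 samples.

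Values were analysed as log2(value + 1). The 17153 genes with a mean of at least 10 entered a limma fit (limma 3.58.1, R 4.3.3; moderated with an intensity trend; two-sided; Benjamini-Hochberg over all tested genes; threshold 0.05). This scale understates the change of genes with few reads. Alternatives were TMM or quantile normalization, pseudocounts of 0.1 or 5, leaving out the filter or raising it to 50, a fit without the trend, edgeR 4.0.16 and DESeq2 1.42.0 on the reads, the replicate number as a block, and leaving out each sample. The voom weights were added after the data were seen. The limma fit with and without the block, edgeR and DESeq2 were also run on simulated counts. Those counts held no effect of the replicate number, so that run does not show how the fits behave on paired samples. The labels number the samples 1 to 3 in each group. Deviations of same-numbered samples from their group means correlated across genes by 0.21, 0.47 and 0.54, so the numbers were taken to pair the samples, and blocked values are given where they change a call and for Ccn2 and Ccn4.

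The members and lists were chosen with earlier results of these data known. Beyond the members, the genes named were Sox9, at most 5 called genes per list, any gene behind a count of 5 or fewer, and the 5 profiles nearest to the called member with the largest change. The other genes (Tead2, Tead3, Vgll3, Vgll4, Ccn6, Frmd6, Map4k4, Dchs1, Lrp1, Spp1, the integrins and the kinase genes) and the genes called only with the block were named after their values were seen. Exon lengths are from GENCODE M21 and promoters from RefSeq (GRCm38.p6). That build differs from the one in the processing notes, so its coordinates only locate the printed sequences.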

Additional observations from a re-analysis of the deposited data

How the results depend on the processing

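Of the members, 1 was called in 14 of the 18 alternatives. The number was 0 at the minimum mean of 50, where Ccn5 and Ccn4 were filtered out, and 0 with voom weights, and it ranged from 0 to 1 over the fits that left out 1 sample. No other member passed in any alternative. The replicate block changed no call of a member. It called 1 gene of the Hippo pathway list with limma and 1 with edgeR, against 0 in the fit without it, and 4 and 2 of the target list, against 1. DESeq2 called 3 of the target list. Over the whole table, 1381 genes were called with the replicate block, 1160 with edgeR and the replicate block, and 1214 with DESeq2, against 510, and 200 to 389 when 1 sample was left out (fewer samples in the fit). Otherwise the cause was not tested.

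The direction of Ankrd1 and Amotl2 was not stable when 1 sample was left out. Ankrd1 ranged from -0.24 to 0.078, the latter without Sox9cKO replicate 3, and Amotl2 from -0.037 to 0.25, the former without Control replicate 3. The 7 other tested members kept their sign in the alternatives run, Ccn5 between 3.42 (pseudocount of 5) and 6.51 (pseudocount of 0.1). Leaving out 1 sample moved the difference between the groups in the log2 ratio of Ccn2 over Ccn1 between 0.83 and 1.23. Sox9, Tead4 and Igfbp3 stayed called in all 18 alternatives. Median log2 fold changes of lists ranged, over the fits that left out 1 sample, from 0.011 to 0.11 (Hippo), -0.13 to 0.12 (co-activators and cofactors), 0.056 to 0.19 (CCN receptors) and -0.697 to -0.40 (immediate early genes). Depth limits Ccn5, Ccn3 and Ccn4, which had at most 94 reads in any library.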

Other observations

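The receptors of CCN proteins were read from a list of 9 integrin and co-receptor genes, all of which were tested. None passed with limma (which called 2.97% of all tested genes) or edgeR. DESeq2 called 1 of the 9, against 1214 of all 17153 tested genes. With limma, 1 had an unadjusted p under 0.05, against 17.8% of all tested genes. The median log2 fold change of the 9 was 0.098. That 1 gene was Lrp1, an endocytic receptor that binds CCN2, with 4808, 4350 and 5728 normalized reads in Control and 9034, 6197 and 10794 in Sox9cKO. Its groups did not overlap. The log2 fold change was 0.78 (limma, adjusted p 0.119; blocked by replicate, 0.0123). The integrin genes Itgb1 (0.13), Itgav (0.43), Itga5 (0.055) and Itgb5 (0.0099) did not pass (limma). Itgb3, an integrin beta subunit that pairs with the product of Itgav, had 31.1, 174 and 21.9 normalized reads in Control and 85.6, 215 and 86.0 in Sox9cKO, and replicate 2 was the highest in each group, as for the endothelial sum. The part of endothelial cells in it was not tested.

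Krt7, a keratin of the bile duct epithelium, was the one of the 10 listed biliary markers that rose (log2 fold change 0.997, limma adjusted p 0.0408), and it lost its call in 7 of the 18 alternatives.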
